A study of Homo sapiens with 4 samples.

Results

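The sites described here are predicted N6-methyladenosine (m6A) positions in C643 cells that depart from the DRACH sequence through the bases upstream of the adenosine. They were chosen from the deposited list by their sequence in GRCh38 on the strand of the site, counting positions from the adenosine. Each has C at +1, as DRACH does, together with C at -2 or a pyrimidine (C or T) at -1, whatever base stands at +2. This rule took 660 of the 18789 listed sites (3.51%, 95% Wilson interval 3.26 to 3.79), which is 31.1% of the 2125 sites outside DRACH. C643 is an established line from an anaplastic thyroid carcinoma, and the cells were wild type and untreated. In miCLIP2, the assay used, fragments of polyadenylated RNA are bound by an antibody to m6A, ultraviolet light links RNA and antibody, and cDNAs end at the linked nucleotide. There was 1 group of 3 biological replicates in 4 libraries, since replicate 1 has 2 technical ones. The replicates were pooled into 1 list without read counts, so neither the spread between replicates nor the depth at a site is known, and no sample lacking the methyltransferase was analysed here. Wilson intervals below cover the counting of sites or motif occurrences and no variation between cultures.

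m6A is deposited on nuclear pre-mRNA by a complex in which METTL3 is the catalytic subunit and METTL14 helps to bind the RNA. The complex prefers adenosines within DRACH, where D is A, G or T, R is A or G, and H is A, C or T. Methylated sites are known to gather in long internal exons and around stop codons, and are read by proteins of the YTH family that affect splicing, export and decay of the RNA. Which adenosine a peak is assigned to also depends on the antibody, on crosslinking and, in this list, on the m6Aboost classifier, whose inputs include the surrounding 21 nt and the transcript region. Scores and base composition are therefore given as descriptions of the listed sites, without a test.

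The highest-scoring site of each of the 8 most frequent pentamers is printed to show what these sequences look like. Each window holds 21 nt of the GRCh38 reference, 5′ to 3′ on the strand of the site, with the pentamer from -2 to +2 in capitals and the predicted adenosine at its centre.
RNASEH2A, chr19:12813536-12813556, plus strand: taggggatGTACTtttgggac
SZRD1, chr1:16395298-16395318, plus strand: aaccccatGCACTgtgacctc
NOTCH2, chr1:119914733-119914753, minus strand: catgaaagCAACTttggtctc
IRF2BPL, chr14:77025886-77025906, minus strand: ggtggcagATACTctgggcac
DEXI, chr16:10929149-10929169, minus strand: agatgcagCGACTgtttcagg
TNRC18, chr7:5388042-5388062, minus strand: cttataaaGTACAgtggcagc
SYDE1, chr19:15114300-15114320, plus strand: aacaccagTTACTgtgagcat
BTBD6, chr14:105250532-105250552, plus strand: gaactcagCTACTttgggcag
The scores of these sites ran from 0.624 in SZRD1 and 0.635 in BTBD6 to 0.815 in RNASEH2A, which encodes the catalytic subunit of ribonuclease H2. The NOTCH2 site, in the mRNA of a receptor for Delta and Jagged ligands, scored 0.802. In 7 of the 8 windows the base at +2 is T, the exception being TNRC18.

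A pyrimidine at -1 alone set 506 of the 660 sites (76.7%) apart from DRACH, and C at -2 alone set apart 142 (21.5%). The other 12 (1.82%) had both departures, and all of them were CTACT. Of the 40 pentamers that the rule allows, 17 had at least 1 site. GTACT accounted for 261 sites (39.5%). It was followed by GCACT with 87 sites, by CAACT with 74, by ATACT with 66 and by CGACT with 59, and these 5 pentamers made up 547 sites (82.9%). GTACA had 30 sites, TTACT had 28, and each of the remaining pentamers had 12 or fewer. No site had C at both -2 and -1. A single base change would turn 642 of the sites into DRACH, and 18 would need 2 changes. Among the latter, 6 also had G at +2, of which 4 were GTACG and 2 were CGACG.

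The base downstream, which the rule did not fix, was T at +2 in 604 of the 660 sites (91.5%, 89.1 to 93.4). The share among the 16664 DRACH sites was 60.4% (59.6 to 61.1). T at +2 was similarly frequent with a pyrimidine at -1 alone (90.7%) and with C at -2 alone (93.7%). At -1 the members had T in 62.7% and C in 15.8% of sites, and at -2 they had G in 59.5%, against 67.3% in DRACH sites.

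These shares were set against how often each pentamer occurs in the exons of the 3714 host transcripts, the chosen transcripts of genes with an exonic listed site. Of 625452 adenosines followed by C in those exons, 17360 were listed, a background of 2.78%. The member pentamers were listed at 632 of 376795 occurrences (0.168%, 0.155 to 0.181), DRACH at 7.29% and DRACG, which departs from DRACH by G at +2 alone, at 2.94%. These counts read the pentamer in the spliced transcript. GTACT stood apart from the other members, with 249 of 5540 occurrences listed (4.49%, 3.98 to 5.07). That is above the share of 11 of the 18 DRACH pentamers, although its interval overlaps those of GAACA at 4.24% and of TAACT at 3.95%. Among the DRACH pentamers that also have T at +2, only TAACT was lower than GTACT, and the next, AAACT, was at 6.95%. GGACT, the most frequently listed DRACH pentamer, was listed at 25.8% of its occurrences. The next members were ATACT at 1.40%, then CGACT at 1.22%, then CAACT at 0.770% and GCACT at 0.636%. GCACT was thus the second most frequent member by count but only the fifth by listing share, with 12734 occurrences.

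The listing share of members differed by the base at +2 and by the kind of pyrimidine at -1. Members with T at +2 were listed at 0.640% of 90519 occurrences, and members with another base there at 0.0185% of 286276. In DRACH the same split gave 15.1% and 4.07%. With a permitted base at -2, T at -1 was listed at 0.637% and C at -1 at 0.0699%. Pentamers with both departures were listed at 0.0104% of 115486 occurrences. The 23 pentamers without a site occurred 250479 times together, but they were grouped by having no site, so no bound is given for them jointly. For a single pentamer, a count of 0 allows a share of up to 0.00962% at CCACC, with 31178 occurrences. At ATACG, with 1451 occurrences, it allows up to 0.207%. Both limits concern listing by the classifier and give no bound on methylation. The study left peaks at the rarest pentamers out of the positive examples that trained the classifier. Whether the pentamers without a site here were among those left out was not tested.

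**Figure D1:**
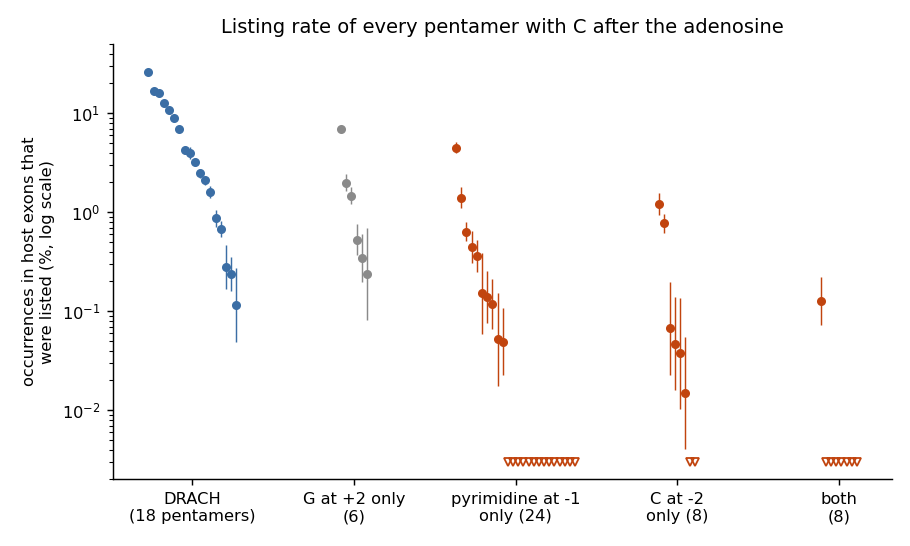
Share of the occurrences of each pentamer in host exons that were listed (vertical axis, %, log scale), with 1 point per pentamer, 95% Wilson intervals as bars, and pentamers without a listed occurrence as open triangles at the bottom at no particular value. Members (orange) lie mostly below DRACH pentamers (blue) and DRACG pentamers (grey), and the highest member, GTACT at 4.49%, lies within the DRACH range.

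Prediction scores of members were low within the list. Their median was 0.601 with quartiles of 0.542 and 0.677, and the highest was 0.815, whereas the median was 0.769 at DRACH, 0.699 at DRACG and 0.551 at sites without C at +1. A score of at least 0.7 was given to 126 members (19.1%), against 67.0% of DRACH sites. GTACT had a median of 0.657 and supplied 91 of those 126 sites. The median was 0.626 for CGACT and 0.550 for GCACT, and no GCACT site reached 0.7. The 3 highest members, in RNASEH2A, DCTN3 and CZIB, were all GTACT sites with the same score of 0.815. They were followed by DEXI at 0.814, POMGNT2, a glycosyltransferase that acts on dystroglycan, at 0.807, and NOTCH2. The 3 lowest, in the drug efflux pump ABCC1, the sugar transporter SLC50A1 and SHISA4, scored between 0.50002 and 0.50045, at the lower edge of the list.

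**Figure D2:**
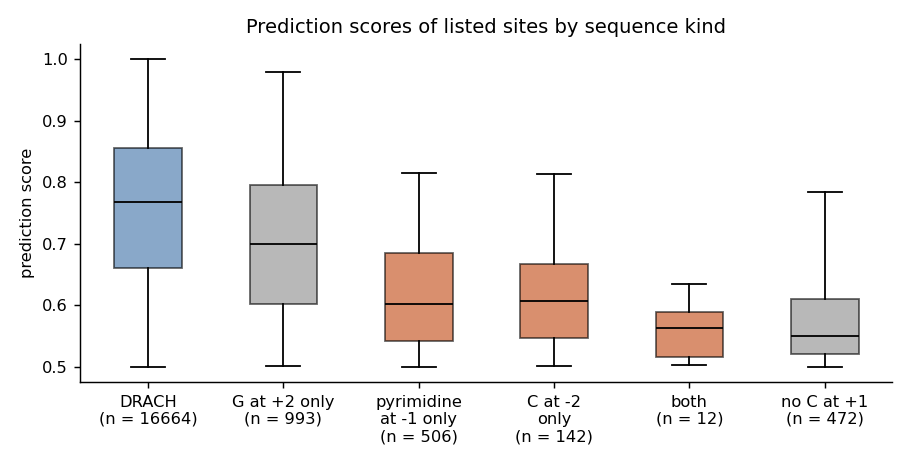
Prediction scores (vertical axis, 0.5 is the lower end of the list) by sequence kind, with boxes from the lower to the upper quartile, a line at the median and whiskers to the lowest and highest site. Both large member classes (orange) have medians near 0.6, below the median of 0.769 for DRACH sites.

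Bases outside the pentamer also differed between the listed members and all occurrences of the same pentamers. For this comparison the occurrences of each pentamer were weighted by its number of listed sites. The pattern was noticed after its values were seen, and these positions lie within the window that the classifier reads. T at +4 stood at 54.1% of 632 listed occurrences (50.2 to 58.0), against 25.3% over all weighted occurrences. A at -4 stood at 44.6% against 26.5%, G at +3 at 51.6% against 34.2% and G at +5 at 44.5% against 28.1%. DRACH sites differed from their occurrences in the same direction by less, with T at +4 in 30.98% against 22.9% and A at -4 in 32.3% against 23.8%. GCACT was an exception at +3, where 51 of its 81 listed occurrences had T (63.0%) against 25.7% of all GCACT occurrences.

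Counting how many of these 4 bases a window held spread the listing shares widely. Member pentamers with none of the 4 were listed at 36 of 35770 occurrences (0.101%), and those with all 4 at 23 of 793 (2.90%, 1.94 to 4.31). For GTACT the share ran from 1.57% of 1466 occurrences with none to 7 of 37 with all 4 (18.9%, 9.48 to 34.2). For all DRACH pentamers it ran from 4.30% to 19.3% (17.1 to 21.7), and for GGACT alone from 20.9% to 29.9%, the latter with an interval of 21.7 to 39.6. The 4 bases were picked from their higher shares at these same listed members, so a rise among members and GTACT followed from the choice. It is no separate evidence for the pattern, and these values do not show that the pattern is particular to members. The windows in SZRD1, TNRC18 and SYDE1 printed above, with A at -4 and G at +3 followed by T and G, each hold all 4.

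**Figure D3:**
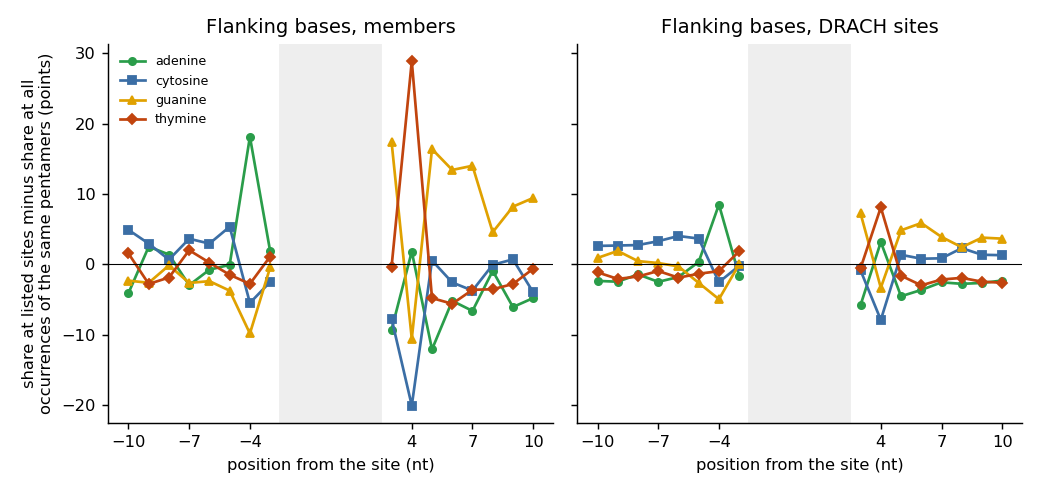
Difference, in percentage points, between the share of each nucleobase at listed sites and its weighted share at all occurrences of the same pentamers in host exons, by position from the adenosine (nt), for members (left) and DRACH sites (right), with the pentamer shaded. In members thymine at +4 rises 28.9 points above the occurrences, and the differences at DRACH sites are smaller.

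By the chosen transcripts, 396 members lay in 3′ UTRs (60.0%, 56.2 to 63.7) and 218 in coding sequence (33.0%, 29.5 to 36.7), whereas DRACH sites divided into 51.4% and 39.4%. A further 28 members lay in an exon of another transcript of the gene, 11 in noncoding exons, 5 in 5′ UTRs and 2 in introns. Kinds were compared within host genes that hold both, with an exact stratified test (two-sided, 4 such tests, Benjamini-Hochberg adjusted), whose p-values cover sites and not cultures. In these genes 374 of 577 members (64.8%) lay in the 3′ UTR, where 60.3% were expected from the genes they are in. The ratio was 1.08 and the odds ratio 1.47 (1.15 to 1.88, exact stratified test, p = 0.00198, adjusted p = 0.00793). Sequence and region were both inputs of the classifier, so this result describes the list, and the classifier's part in it was not tested. The exact test did not pass at scores of at least 0.7 (ratio 1.01, p = 0.881) or for GTACT members alone (ratio 1.03, exact p = 0.507), a choice made with the results in view.

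The listing shares differed between regions by pentamer. Members were listed at 0.263% of occurrences in 3′ UTRs and 0.112% in coding sequence, and DRACH at 9.05% and 6.29%. GCACT was listed at 72 of 5912 occurrences in 3′ UTRs (1.22%, 0.968 to 1.53) and at 7 of 5796 in coding sequence (0.121%, 0.0585 to 0.249). CGACT was at 3.16% and 0.848%. CAACT was at 1.13% (0.834 to 1.54) and 0.598% (0.422 to 0.848), with intervals that overlap slightly. For ATACT the shares were 1.47% and 1.49%, and for GTACT they were 5.18% and 4.12% with overlapping intervals. Region was an input of the classifier, and its part in these shares was not tested. Median scores of members were 0.607 in 3′ UTRs and 0.595 in coding sequence, a smaller gap than the 0.816 and 0.716 of DRACH sites.

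Positions around the stop codon did not pass the test of a difference. Of 619 members in coding transcripts, 216 lay within 200 nt of the stop codon (34.9%, 31.2 to 38.7), against 33.5% of DRACH sites. Within host genes the odds ratio was 1.12 (0.897 to 1.39, exact stratified test, p = 0.340, adjusted p = 0.404). Members in the 3′ UTR lay a median of 274.5 nt past the first base of the stop codon, and DRACH sites 298 nt. The last exon held 82.7% of members (79.5 to 85.5) and 76.1% of DRACH sites (75.5 to 76.8), a difference not tested within genes. These shares include single-exon transcripts, which held 5.49% of members and 4.01% of DRACH sites. Of 168 coding members compared within genes, 36 had an exon junction no more than 100 nt away (21.4%, with 23.4% expected, odds ratio 0.763, 0.430 to 1.35, exact stratified test, p = 0.404, adjusted p = 0.404). Within codons, 62.4% of the coding members had their adenosine at the second position, as did 60.1% of all coding occurrences of the same pentamers.

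**Figure D4:**
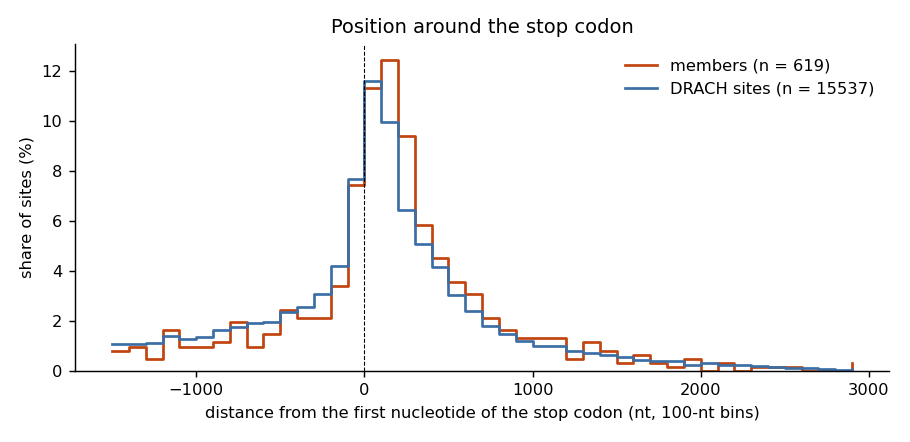
Distance from the first nucleotide of the stop codon (horizontal axis, nt along the transcript, positive is 3′) in bins of 100 nt, as the share of members (orange, 619 sites) and DRACH sites (blue, 15537 sites). Both kinds peak just past the stop codon, members with 12.4% of sites in the bin from 100 to 199 nt.

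The nearest listed DRACH site on the same strand lay a median of 79.5 nt from a member (quartiles 29 and 208), and the nearest other DRACH site lay 73 nt from a DRACH site (28 and 216). A listed DRACH site stood within 10 nt of 68 members (10.3%), upstream in 32 and downstream in 36. The partner had the higher score in 58 of these 68 pairs (85.3%), with medians of 0.794 for partners and 0.597 for members. The order was the same over the whole list, close pairs or not, with medians of 0.769 at DRACH sites and 0.601 at members. Within host genes the share of members with a listed DRACH site within 10 nt was 10.99%, against 8.37% expected (ratio 1.31, odds ratio 1.46, 1.09 to 1.95, exact stratified test, p = 0.00809, adjusted p = 0.0162). This comparison does not treat both kinds alike, because a DRACH site cannot be its own neighbour and DRACH sites were never closer than 4 nt. When another member or DRACH site within 10 nt was counted for both kinds, a version added after seeing the data, the shares were 11.3% and 10.4% expected (ratio 1.08, exact p = 0.370). The comparison with listed DRACH sites alone also did not pass at scores of at least 0.7 (ratio 0.929, exact p = 0.862) or when pooled over genes (1.18, exact p = 0.159). The 171 members farther than 200 nt from a listed DRACH site had a median score of 0.576. Of 630 exonic members, 151 had a DRACH sequence within 10 nt, listed or not (23.97%), as had 24.8% of exonic DRACH sites, and 112 had none within 50 nt.

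The most frequent offset was 4 nt downstream, at 11 members, followed by 9 nt downstream, at 10. The windows of some close pairs are printed to show how the sequences lie, with the member's pentamer in capitals and the DRACH partner in lower case beside it.
PXN, chr12:120212251-120212271, minus strand: cccaactgCGACTgtgaccta
PLCG1, chr20:41174719-41174739, plus strand: caaaaactGTACTgtgtttcg
HLX, chr1:220884700-220884720, plus strand: tatagactGTACTagggcgga
HSPA5, chr9:125236548-125236568, minus strand: tattgtaaATACTggactcag
RHOB, chr2:20448688-20448708, plus strand: gacatttgCAACTgacttggg
In PLCG1, a phospholipase that acts downstream of receptor kinases, the member scored 0.754 and the AAACT site 5 nt upstream scored 0.947. In HLX, a homeobox transcription factor, the scores were 0.711 for the member and 0.943 for the AGACT site 5 nt upstream. In HSPA5, the main chaperone of the endoplasmic reticulum, the member scored 0.696 and the GGACT site 5 nt downstream 0.901. The small GTPase RHOB had a listed member at 0.515 and a TGACT site 4 nt downstream at 0.806. The study took this same member adenosine as its unmodified control beside the TGACT site, in an antibody-free assay called SELECT. The assay was done in HEK293T cells, an embryonic kidney line, so the listing in C643 is a prediction and not a measured modification. With SELECT the study also reported Mettl3-dependent methylation at a GTACT site in Palm3, in mouse embryonic stem cells. In HEK293T cells it reported binding of the reader YTHDF1 at predicted sites outside DRACH, less pronounced than at DRACH. Those sites were not divided by kind of departure, and neither result measured a site in C643. In the order of scores the PXN pair ran the other way, with 0.800 for the member and 0.580 for the TGACC site 6 nt downstream. A pair in NDST1, an enzyme that modifies heparan sulfate, did so too, at 0.711 and 0.510.

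**Figure D5:**
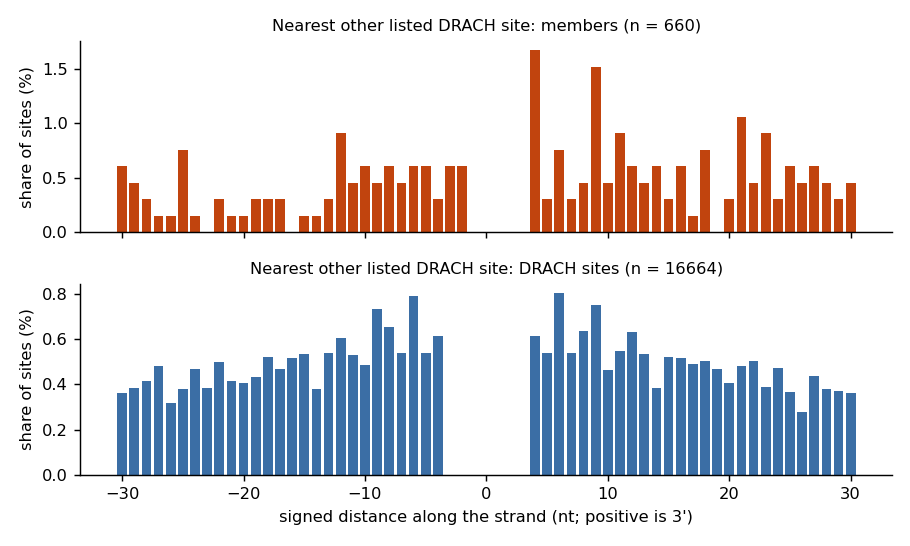
Signed distance (nt, positive is 3′) to the nearest other listed DRACH site within 30 nt, as the share of the 660 members (top) and of the 16664 DRACH sites (bottom), on separate vertical scales. The tallest bars of the members stand for 11 sites at 4 nt and 10 sites at 9 nt downstream.

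The members lay in many genes, few to each. Of 660 members, 658 had a host gene, and these lay in 560 of the 3851 genes with any listed site, or 14.5%. A single member was found in 477 of these genes, 2 in 70 genes and 3 or more in 13. Genes with a member held a median of 7 listed sites (quartiles 4 and 11) and the others 3 (2 and 6). The share of genes with a member rose from 4.62% of genes with 1 site to 54.0% of those with 16 to 48 sites, while members were between 3.03% and 4.62% of all sites in every such class. The 2 members without a host gene were a GTACT site on chromosome 12 at 1502584 (0.522) and a TTACT site at 3647 of the mitochondrial genome (0.502). Both lay within annotated genes, but none with a transcript that met the support and annotation levels required of a host gene. In 38 host genes no DRACH site was listed beside the members.

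PXN, which encodes the focal adhesion adaptor paxillin, had the most, with 5 members on its last exon. These scored 0.800, 0.670 and 0.639 at CGACT, 0.612 at GTACT and 0.504 at TTACT, and 4 of them lay in the 3′ UTR. Genes with 3 members included PIP5K1C, a lipid kinase that makes phosphatidylinositol bisphosphate at adhesions, whose scores were 0.781, 0.709 and 0.593. They also included DGCR2, TMEM203, H6PD, LRRC14, NDST1 and WDR6. The 3 members of WDR6, a gene for a partner of a tRNA methyltransferase, all lay in coding sequence and scored 0.724, 0.685 and 0.576.

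Among genes that the study names, DDIT4, an inhibitor of mTORC1 induced by stress, had a member at CAACT in coding sequence (0.617) and another at GTACT in the 3′ UTR (0.551). ABT1 had members at ATACT (0.589) and TTACT (0.578), both in the 3′ UTR, and RHOB had the site printed above, the adenosine that served the study as a control. Gene lists by function were described by counts alone, read against the 14.5% of all host genes with a member. Of 27 host genes for matrix and adhesion proteins 8 had a member (29.6%, 15.9 to 48.5), among them the semaphorin receptor PLXND1, whose site scored 0.730. These 27 genes held a median of 12 listed sites, the most of any of the lists, and members were 13 of their 323 sites (4.02%), against 3.51% of the whole list. The count was 5 of 21 for NOTCH, WNT, Hippo and TGF-beta genes, with NOTCH2 the highest, and 4 of 22 for receptor kinases and MAPK feedback genes, with EPHA2 the highest at 0.598. It was 4 of 23 for immediate early and stress transcription factors, with IER2 the highest at 0.656. It was 13 of 69 for solute carriers, with SLC35C1 at 0.769, and 12 of 69 for ZNF zinc finger genes, with ZNF592 at 0.722. Of 9 cytoskeletal linker genes 1 had a member, PLEC at 0.577. No member was found in 15 histone-modifying enzyme genes or in 3 genes of the m6A machinery, and, apart from that for matrix and adhesion, the intervals of these shares include 14.5%.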

How the data were processed

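Polyadenylated RNA of C643 cells was profiled by miCLIP2 without treatment. From the methods and the submitters' processing notes, reads were aligned with STAR 2.7.3a to GRCh38 and filtered with SAMtools 1.9, UMI-tools 1.0.0 removed duplicates, and bedtools 2.27.1 was used. Peaks called by PureCLIP on each replicate and found in more than one were classified by m6Aboost. The deposited prediction score is a fraction from 0 to 1, and the authors pooled replicates into 1 list without read counts, so the depth of each site is unknown. There were 0 unused sample columns.

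Positions were read from the list, sequences from the GRCh38 genome and regions from GENCODE release 44 (the authors used 31). Each gene was represented by its longest transcript with a support level (TSL) of at most 3, or none, and an annotation level of at most 2. Protein-coding transcripts and genes were preferred.

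The 4 tests were exact conditional tests stratified by host gene, two-sided, at a threshold of 0.05. The test near the stop codon, alone, was tested on simulated data drawn on 524 host genes, where 6 of 200 lists without an effect passed, and 20 of 20 with a planted odds ratio of 3. An effect as small as the observed odds ratio of 1.12 was not simulated, so the power to detect it is unknown. Members, gene lists and tests were chosen with earlier results of these data known. Named sites were those in the 8 genes with most members, the 6 highest and 3 lowest scores, the highest of each of 8 pentamers and each list, the 5 highest of close pairs (within 6 nt), and genes the study names. Alternatives changed score threshold, transcript, windows, members and pooling. Python 3.11.15, scipy 1.17.1, pandas 2.3.3, pysam 0.24.0, statsmodels 0.14.6 and matplotlib 3.10.9 were used.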

Additional observations from a re-analysis of the deposited data

How the results depend on the processing

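Of 46 alternatives over 8 results, 28 changed neither direction nor call, or moved by less than the spread. The p-values are from the exact stratified test. At scores of at least 0.7, the ratio of observed to expected members was 1.01 for the 3′ UTR (exact p = 0.881), 0.925 near the stop codon (exact p = 0.591), 1.45 near exon junctions (exact p = 0.223) and 0.929 for a DRACH neighbour within 10 nt (exact p = 0.862). There the listing share was 0.0324% for members and 1.61% for GTACT, and T stood at +2 in 99.2%. In 3′ UTRs alone the listing share was 0.263% for members and 5.18% for GTACT, and in coding sequence alone it was 0.112% for members. A junction window of 50 nt gave 1.03 (exact p = 0.865), and pooling over genes gave 1.18 for the DRACH neighbour (exact p = 0.159).

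Alternatives chosen after seeing the data gave, for GTACT members alone, 1.03 in the 3′ UTR (exact p = 0.507), 0.943 near the stop codon (exact p = 0.528), 1.09 near junctions (exact p = 0.692) and 1.34 for the DRACH neighbour (exact p = 0.0924). Counting a member or DRACH site as the neighbour gave 1.08 within 10 nt (exact p = 0.370) and 0.997 within 50 nt (exact p = 0.960). Leaving out PXN changed no call. The causes were not tested.

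Leaving out each replicate was not possible, as the list pools them. No paired analysis was possible because all libraries belong to 1 group. Peaks that the classifier rejected are not in the list.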
